A study of Mus musculus with 9 samples.

Results

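Nuclear receptors are transcription factors, many of which are switched by small fat-soluble molecules such as steroid and thyroid hormones, retinoids, oxysterols, fatty acids and foreign compounds. Many of them bind DNA together with a retinoid X receptor at repeats of the half-site AGGTCA, whereas steroid receptors bind as dimers of their own kind, those for estrogen at repeats of AGGTCA and the others at repeats of AGAACA. In the small intestine they are known for setting the handling of bile acids, cholesterol, dietary fat, salt and drugs in the absorptive epithelium.

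The genes described are 34 nuclear receptors of the mouse, taken by gene symbol from a table of 54532 genes. The table holds 15 further nuclear receptors, which makes 49 in all. RNA of mouse duodenum was sequenced in 3 groups of 3 libraries, after removal of ribosomal RNA and with a directional library kit. The control group is labelled wild type (WT) with gluten stimulation that was not enhanced. The CeD group is labelled as a celiac disease delayed-type hypersensitivity (DTH) model under enhanced gluten stimulation, and its strain, sex and age are not given in the labels. The CeD+GR group is the same DTH model under the same enhanced stimulation, given beforehand composite nanoparticles of gliadin, a gluten protein fraction, and rapamycin, an inhibitor of the kinase mTOR. CeD and CeD+GR therefore share the model and the enhanced gluten, and control differs from both in the model and in the stimulation together, which cannot be told apart. The series states that the effect of the nanoparticles was assessed at the level of transcription factors. The labels do not tie libraries to separate animals, so a p-value here measures only how much these samples varied, and that variation may be technical.

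Levels are in FPKM, fragments scaled to gene length and to a size per library, which can be compared between genes. Each library gave 15373260 to 16852104 reads in genes. The size that the values imply ran from 1.44e+07 in CeD 2 to 1.82e+07 in control 1. It was below the reads in genes of CeD 2 and above those of control 1, so it is not that count. How it was set is not known here. A gene was tested if its mean over the 9 libraries was at least 0.5 FPKM, which left 14683 genes. Of the 34 receptors 23 were tested and 11 were not. The 23 tested receptors had at least 1 read in every library, with 525 to 32887 reads over the 9 libraries, and the other 11 had 0 to 204.

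Several libraries stood apart in markers of particular cells and tissues. CeD+GR 3 was high in the list of 12 gastric markers. They summed to 140705 FPKM there, against 0 to 52.7 in the other 8 libraries. Tff2, a secreted peptide of mucous cells, alone was at 116219 FPKM. Whether these transcripts came from stomach or from mucous glands of the duodenum itself was not tested. Not all of the 12 were high in CeD+GR 3, where Atp4a was at 0.211 FPKM, Atp4b at 0.122, and Gif and Chia1 at 0. Its 12 enterocyte markers summed to 9163 FPKM against 13891 to 37585 elsewhere, while its Cdh1, which encodes the epithelial adhesion protein E-cadherin, was at 160 FPKM against 120 to 186 elsewhere. CeD+GR 2 held adipocyte markers at 579 FPKM against 46.7 to 121, and CeD 1 held markers of exocrine pancreas at 3635 FPKM against 4.26 to 55.4. The 3 replicate 1 libraries held 10 Paneth cell markers at 1439 to 2931 FPKM, against 89.7 to 233 in the other 6. Enterocyte markers were present in every library, with Apoa1, an apolipoprotein of the absorptive cells, at 2057 FPKM or more. In whole tissue, fewer cells of a type and less RNA per cell cannot be told apart.

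**Figure D1:**
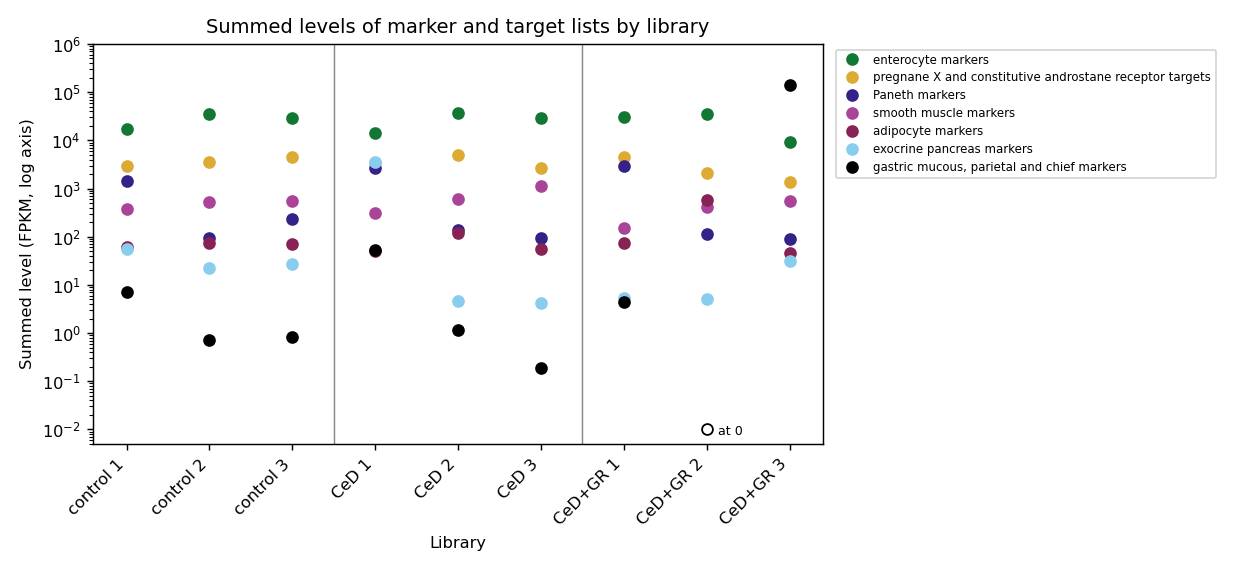
Summed level (FPKM, log axis) of 6 cell type marker lists and of the target list of the pregnane X and constitutive androstane receptors in each of the 9 libraries, with vertical lines between groups. The gastric sum of CeD+GR 3 is 140705 FPKM, and the open circle marks the gastric sum of 0 in CeD+GR 2, which is drawn at the foot of the log axis.

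The half-site that most of these receptors read was also searched for in front of their own genes. RefSeq promoter windows of the build GRCm38.p6 were matched for 31 of the 34 receptors, with 51 promoters. AGGTCA, on either strand, lay in the 250 bases before the start in 9 of the 51 promoters, or 17.6%, against 14.02% of all 32851 promoters. The matches belonged to 8 receptors, namely Nr0b1, Nr5a2, Nr6a1, Pparg, Rarg, Rxra, Rxrg and Thrb. The windows below are those of expressed receptors that lie outside annotated exons. They are shown because they carry, in front of a receptor gene, the letters that receptors bind. Capitals mark AGGTCA, or TGACCT where the match is on the other strand.
Rxra, chr2:27709185-27709269, plus strand: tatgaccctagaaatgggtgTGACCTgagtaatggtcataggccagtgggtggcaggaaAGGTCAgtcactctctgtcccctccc
Nr6a1, chr2:38784535-38784626, minus strand: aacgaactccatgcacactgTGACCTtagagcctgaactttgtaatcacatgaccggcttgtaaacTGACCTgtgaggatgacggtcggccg
Nr5a2, chr1:136960487-136960532, minus strand: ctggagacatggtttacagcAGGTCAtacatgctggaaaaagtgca
Thrb, chr14:17660756-17660801, plus strand: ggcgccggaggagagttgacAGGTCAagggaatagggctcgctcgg
Rarg, chr15:102257722-102257767, minus strand: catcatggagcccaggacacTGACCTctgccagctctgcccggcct

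Rxra and Nr6a1 each held 2 matches in 1 window. In Rxra they point away from each other, 87 and 48 bases before the start, and in Nr6a1 both are on the other strand, 91 and 45 bases before it. The single matches lie 64 bases before the start in Nr5a2, 184 in Thrb and 225 in Rarg. The steroid half-site AGAACA was found in 4 of the 51 promoters (7.84%, against 16.1% of all promoters), in those of Esrrb, Nr5a2 and Thrb. Nr5a2 and Thrb thus carried both kinds of letters, in Thrb at different starts of the gene. The steroid half-site of Nr5a2 nearest the start lies 29 bases before it, close to the window above, and is shown for that reason.
Nr5a2, chr1:136960452-136960497, minus strand: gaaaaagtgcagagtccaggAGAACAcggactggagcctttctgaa

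The GC box GGGCGG was found in 20 of the 51 promoters, or 39.2%, against 32.7% of all, and those belonged to 15 receptors. The cyclic AMP response element TGACGTCA was found in 0 of the 51, against 1.55% of all promoters. These matches describe letters in a window and say nothing of binding in the duodenum.

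Among the 34 receptors the levels spanned from 0 reads to a mean of 58.1 FPKM. The 9 receptors above 10 FPKM were, from the top, Nr1i2, Rxra, Nr1h2, Nr1h3, Thra, Nr3c1, Nr2f6, Ppard and Pparg. Another 12 lay between 1 and 10 FPKM, from Rxrb at 8.85 FPKM down to Esrrg at 1.003 FPKM, and Nr4a3 and Rora lay below, at 0.599 and 0.586 FPKM. Of the 22 steps between neighbours in this order, 4 were larger than the larger of the neighbours' SDs over the 9 libraries: Nr1i2 above Rxra, Rxra above Nr1h2, Nr2f6 above Ppard and Nr3c2 above Thrb. Of these only the first 2 held in all 9 libraries. For the other 18 neighbouring pairs the step was no larger than that SD, although Nr5a2 was above Nr1i3 in all 9 libraries, by 1.79 FPKM against an SD of 1.80. The top 5 receptors made up 50.0% to 67.8% of the summed level of the 34, which ranged from 189 FPKM in CeD+GR 3 to 302 FPKM in control 2.

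**Figure D2:**
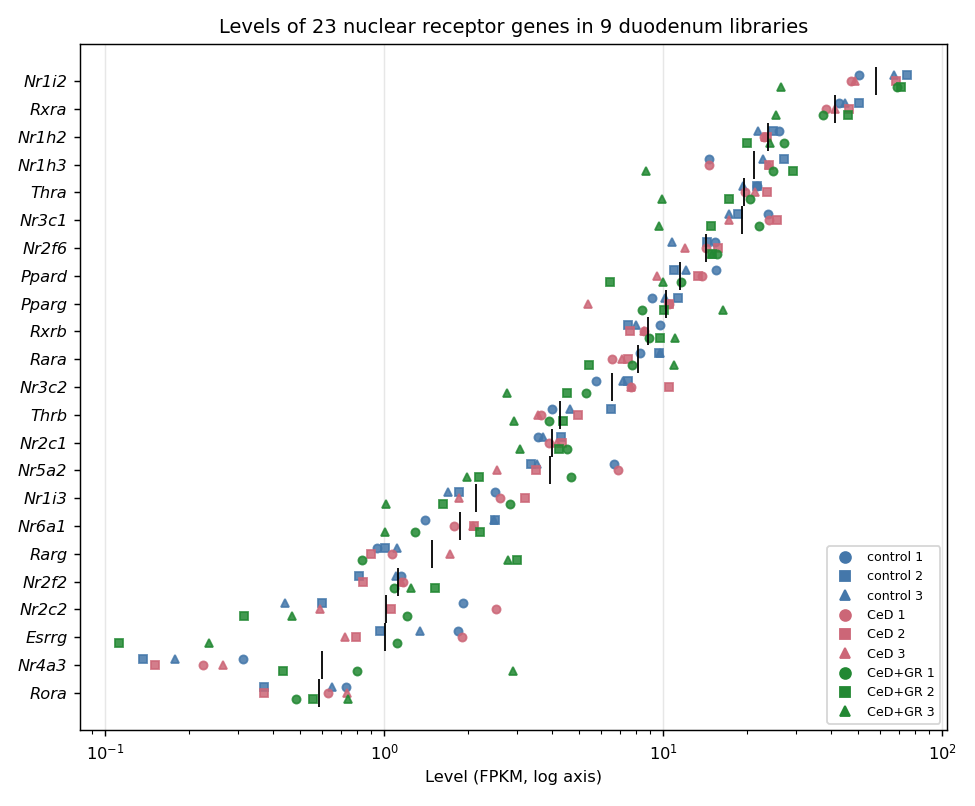
Level (FPKM, log axis) of the 23 tested receptors, ordered by their mean, in the 9 libraries. Each symbol is 1 library, colour gives the group, shape the replicate number, and the black bar the mean of the 9. Nr1i2 leads with a mean of 58.1 FPKM, and Nr4a3 shows the widest spread, from 0.137 FPKM to 2.89 FPKM in CeD+GR 3.

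Nr1i2 encodes the pregnane X receptor, which senses bile acids and foreign compounds and switches on drug-metabolizing enzymes and transporters. It was measured at 50.4, 74.9 and 67.2 FPKM in control 1 to 3, at 47.2, 68.5 and 48.8 in CeD, and at 68.8, 70.9 and 26.4 in CeD+GR. The 3 groups overlap, and the single low value is that of CeD+GR 3. None of its fold changes exceeded its standard error (SE). Nr1i3, the constitutive androstane receptor and its close relative, was far lower, at 1.69 to 2.49 FPKM in control, 1.86 to 3.19 in CeD and 1.012 to 2.82 in CeD+GR. Of the bases in Nr1i3 exons 74.9% are also exon of Tomm40l on the other strand, and whether the counting used strand is not given in the sources used here, which leaves its level uncertain.

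The liver X receptors sense oxysterols and control cholesterol export and fat synthesis. Nr1h2, the broadly expressed liver X receptor beta, was among the steadiest of the genes, at 21.9 to 25.9 FPKM in control, 23.1 to 23.5 in CeD and 20.05 to 27.0 in CeD+GR. Its coefficient of variation over the 9 libraries was 8.78%. Nr1h3, liver X receptor alpha, was measured at 14.6, 27.2 and 22.9 FPKM in control, at 14.6, 24.0 and 23.9 in CeD, and at 24.7, 29.1 and 8.68 in CeD+GR. The groups overlap throughout, and Nr1h3 was higher than Nr1h2 in 5 of the 9 libraries.

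Rxra and Rxrb encode retinoid X receptors, the shared partners of the sensors above. Rxra was measured at 42.5, 50.5 and 44.9 FPKM in control, at 38.4, 46.4 and 41.2 in CeD, and at 37.5, 45.9 and 25.4 in CeD+GR. Its lowest value was again that of CeD+GR 3. Rxrb was measured at 9.77, 7.46 and 7.98 FPKM in control, at 8.55, 7.62 and 8.53 in CeD, and at 8.92, 9.75 and 11.0 in CeD+GR. All 3 CeD+GR values of Rxrb lay above all 3 CeD values, by a log2 fold change of 0.25 (SE 0.19). Rxrg, the third partner, had 23 reads in all and was not tested.

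The receptors for thyroid hormone and retinoic acid followed. Thra, thyroid hormone receptor alpha, was measured at 21.7, 21.8 and 19.3 FPKM in control, at 19.7, 23.5 and 21.4 in CeD, and at 20.4, 17.3 and 9.88 in CeD+GR. Thrb, thyroid hormone receptor beta, was lower than Thra in every library, at 3.99 to 6.495 FPKM in control, 3.56 to 4.97 in CeD and 2.91 to 4.38 in CeD+GR. Both were lowest in CeD+GR 3. Rara, retinoic acid receptor alpha, was measured at 8.28, 9.69 and 9.75 FPKM in control and at 6.58, 7.47 and 7.13 in CeD, so all 3 CeD values lay below all 3 control values. Its CeD+GR values were 7.74, 5.41 and 10.9 FPKM and overlap both groups. Rarg, retinoic acid receptor gamma, was near 1 FPKM in most libraries, with 0.941 to 1.11 in control, 0.896 to 1.72 in CeD, and 0.833, 2.99 and 2.78 in CeD+GR. The high values are those of CeD+GR 2 and CeD+GR 3, the libraries with adipocyte and gastric markers, while CeD+GR 1 was the lowest of the 9. The part of those markers in the level of Rarg was not tested. Rarb had 46 reads in all.

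Nr3c1 encodes the glucocorticoid receptor, the mediator of cortisol-like hormones. It was measured at 23.7, 18.6 and 17.2 FPKM in control, at 24.0, 25.5 and 17.2 in CeD, and at 22.1, 14.9 and 9.64 in CeD+GR. The groups overlap, and the 2 lowest values are those of CeD+GR 2 and CeD+GR 3. Nr3c2 encodes the mineralocorticoid receptor, which responds to aldosterone and controls salt uptake by epithelia. The gene lies on chromosome 8, from 76899442 to 77245012 on the plus strand in mm10. It was measured at 5.76, 7.501 and 7.17 FPKM in control, at 7.68, 10.5 and 7.64 in CeD, and at 5.28, 4.51 and 2.75 in CeD+GR. All 3 CeD+GR values lay below all 6 others, and all 3 CeD values lay above all 3 control values. Nr3c2 was thus the 1 tested receptor whose 3 groups were fully separated. The receptors for sex steroids were near 0. Pgr, the progesterone receptor, had 153 reads in all and reached 0.440 FPKM in CeD 3, the library with the highest sum of smooth muscle markers, 1148 FPKM against 154 to 603 elsewhere. Their part in it was not tested. Esr1, estrogen receptor alpha, had 164 reads, and Esr2, estrogen receptor beta, had 3 reads, all in CeD 1.

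The peroxisome proliferator-activated receptors sense fatty acids. Ppard, the widely expressed delta form, was measured at 15.5, 10.9 and 12.0 FPKM in control, at 13.8, 13.4 and 9.46 in CeD, and at 11.5, 6.46 and 9.996 in CeD+GR. Pparg, the gamma form and a driver of fat cell formation, was measured at 9.13, 11.3 and 10.2 FPKM in control, at 10.5, 10.5 and 5.36 in CeD, and at 8.37, 10.1 and 16.4 in CeD+GR. Its highest value was that of CeD+GR 3, with the gastric markers, and its value in CeD+GR 2, with the adipocyte markers at 579 FPKM, was inside the range of control.

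Among the orphan receptors of the NR2 branch Nr2f6, a transcriptional repressor, was highest, at 10.7 to 15.3 FPKM in control, 12.0 to 15.7 in CeD and 14.9 to 15.6 in CeD+GR. Of its exon bases 54.4% are also exon of Ocel1 on the other strand, so its level is uncertain. Nr2c1, the testicular receptor 2, stayed between 3.07 and 4.53 FPKM in the 9 libraries, and Nr2f2, which encodes COUP-TFII, between 0.816 and 1.52. Nr2c2, the testicular receptor 4, was measured at 1.91, 0.599 and 0.441 FPKM in control, at 2.52, 1.06 and 0.589 in CeD, and at 1.21, 0.315 and 0.467 in CeD+GR. In each group its replicate 1 library was the highest, and 30.7% of its exon bases are also exon of Mrps25 on the other strand. Nr2e3 had 204 reads in all and Nr2f1 had 66, and neither was tested.

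Nr5a2 encodes the liver receptor homolog 1, which supports crypt renewal and local steroid synthesis in the gut. It was measured at 6.64, 3.35 and 3.53 FPKM in control, at 6.87, 3.51 and 2.54 in CeD, and at 4.67, 2.18 and 1.98 in CeD+GR. The 3 replicate 1 libraries, which also hold the Paneth markers at 1439 to 2931 FPKM, were the 3 highest of the 9. Nr5a2 and Nr2c2 were the 2 of 23 tested receptors, or 8.7%, with all replicate 1 libraries above the other 6, against 9.06% of all tested genes. The part of the cells with Paneth markers in these levels was not tested. Nr6a1, the germ cell nuclear factor, was measured at 1.40 to 2.499 FPKM in control, 1.78 to 2.10 in CeD and 1.006 to 2.21 in CeD+GR. Nr5a1, the steroidogenic factor 1 of adrenal and gonad, had 9 reads in all, and Nr0b1, its corepressor, had 0, a count that allows up to 3 reads.

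Nr4a3 is an immediate-early gene, induced without ligand by many stimuli. It was measured at 0.312, 0.137 and 0.178 FPKM in control, at 0.225, 0.151 and 0.264 in CeD, and at 0.798, 0.435 and 2.89 in CeD+GR. All 3 CeD+GR values lay above all 6 others, and the highest was in CeD+GR 3. Without its highest group the mean of Nr4a3 was 0.211 FPKM, under the minimum of 0.5, so it entered the fit only because CeD+GR was high, and no test of it is read. Its relatives Nr4a1 and Nr4a2, which are not among the 34, were also highest in CeD+GR 3, at 23.3 and 9.04 FPKM against 1.90 to 18.4 and 0.804 to 2.001 FPKM elsewhere. Esrrg, the estrogen-related receptor gamma, a regulator of mitochondrial genes, was measured at 1.83, 0.968 and 1.35 FPKM in control, at 1.91, 0.794 and 0.723 in CeD, and at 1.11, 0.112 and 0.236 in CeD+GR. The low values are those of CeD+GR 2 and CeD+GR 3, and in each group the replicate 1 library was the highest. Rora, a receptor of the clock and of innate lymphoid cells, stayed between 0.371 and 0.744 FPKM. Esrrb had 63 reads and Rorb 29, and neither was tested.

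**Figure D3:**
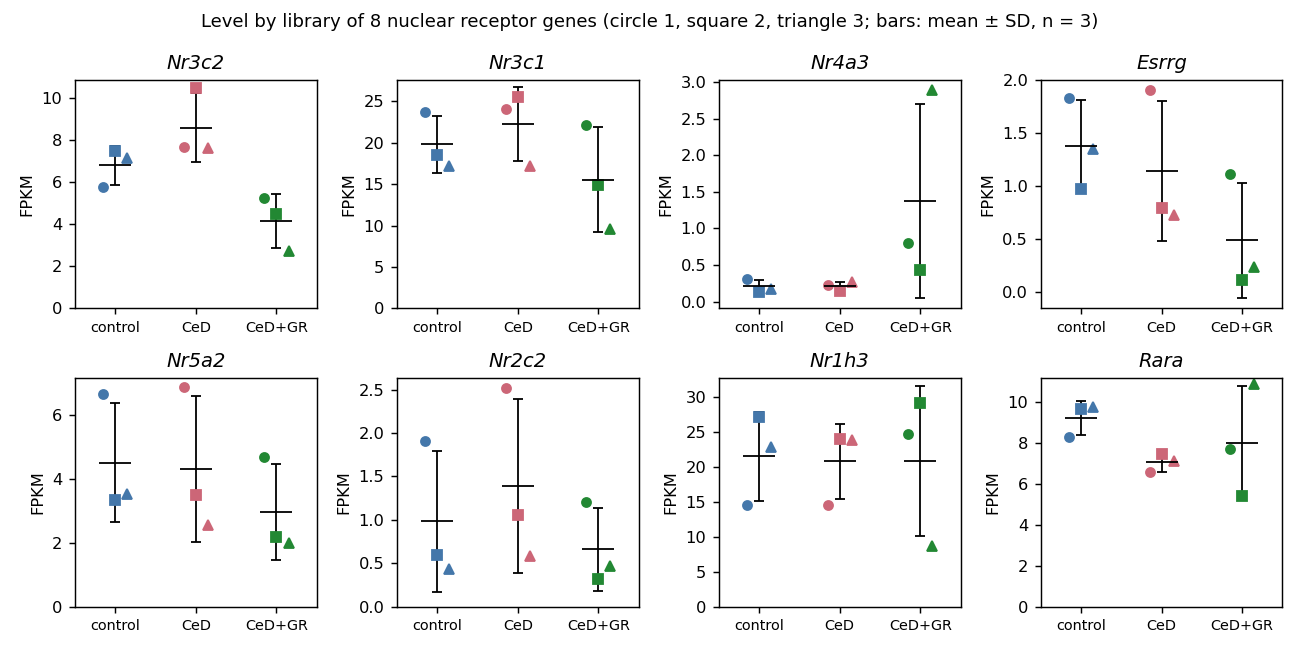
Level (FPKM, linear axes) of 8 receptors in each library, by group, with circles for replicate 1, squares for replicate 2 and triangles for replicate 3, and bars for mean ± SD (n = 3). The 3 groups of Nr3c2 do not overlap, and Nr5a2, Nr2c2 and Esrrg are highest in the replicate 1 library of each group. The triangle of CeD+GR is the lowest point for Nr3c1 and Nr1h3 and the highest for Nr4a3.

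CeD+GR 3 was the lowest of the 9 libraries for 11 of the 23 tested receptors and the highest for 5. Over all tested genes it was lowest for 20.4% and highest for 23.8%. The 11 were Nr1i2, Rxra, Nr1h3, Thra, Nr3c1, Nr3c2, Thrb, Nr2c1, Nr5a2, Nr1i3 and Nr6a1, and the 5 were Pparg, Rxrb, Rara, Nr4a3 and Rora. CeD+GR 2 was lowest for 5 receptors, Nr1h2, Ppard, Rara, Nr2c2 and Esrrg, and over all genes for 22.1%. These libraries carry the gastric and the adipocyte markers, and the part of the cells behind those markers in the levels was not tested.

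**Figure D4:**
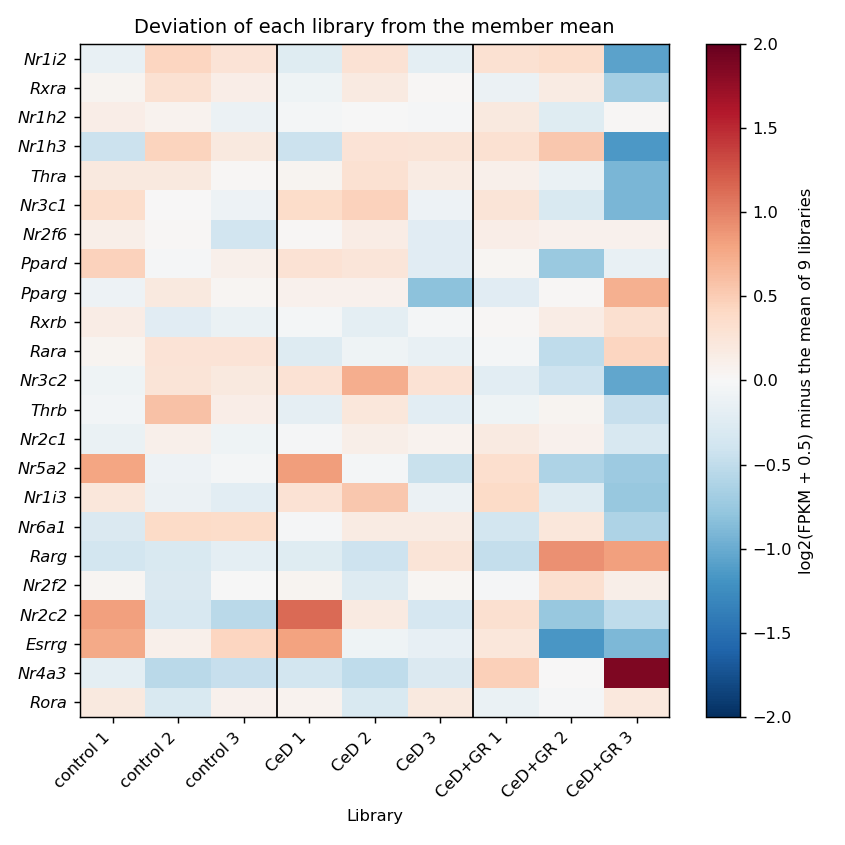
Deviation of each library from the mean of the 9 libraries, as log2(FPKM + 0.5), for the 23 tested receptors in order of level, with black lines between the groups. Red is above the mean and blue below it. The column of CeD+GR 3 holds the lowest value of 11 receptors, and the strongest red is Nr4a3 in that library.

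The first comparison asked how the receptors differed between the celiac model under enhanced gluten and the control mice. No receptor passed the test in CeD against control. The limma test on log2(FPKM + 0.5), with Benjamini-Hochberg adjustment over all 14683 genes at a threshold of 0.05, called 0 of the 23 receptors, and it called 0 of all genes, a background of 0%. At an unadjusted p under 0.05 it held 0 receptors, against 0.701% of all genes, and limma-voom on recovered reads called 0 and held 0 unadjusted. The groups did not overlap for 2 of the 23, Rara and Nr3c2, against 4.69% of all genes. The median log2 fold change of the receptors was -0.02, with 10 positive and 13 negative, and that of all genes was 0.00.

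For 3 receptors the difference between CeD and control exceeded its SE. Rara averaged 7.06 ± 0.451 FPKM in CeD and 9.24 ± 0.831 in control (SD, n = 3 each). Its log2 fold change was -0.36 (SE 0.25), with an unadjusted limma p of 0.180 and an adjusted p of 1. Nr3c2 averaged 8.61 ± 1.64 FPKM in CeD and 6.81 ± 0.924 in control, with a log2 fold change of 0.31 (SE 0.26), an unadjusted limma p of 0.265 and an adjusted p of 1. For Thrb the log2 fold change was -0.27 (SE 0.25) and the groups overlap. The adjusted p of Thrb was 1 as well. Single libraries moved both values, since Thrb was -0.09 without control 2 and -0.41 without CeD 2 or control 1, and Nr3c2 was 0.17 without CeD 2 and 0.20 without control 1.

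The second comparison asked how the receptors differed between model mice with and without the nanoparticles. No receptor passed the test in CeD+GR against CeD. The limma test called 0 of the 23 receptors and 0% of all genes. Leaving aside Nr4a3, which entered only through its high group, it held 1 of 22 receptors at an unadjusted p under 0.05, Nr3c2, against 2.89% of all genes, and limma-voom called 0 and also held Esrrg. The groups did not overlap for 2 of these 22, Rxrb and Nr3c2, against 6.05% of all genes, nor for Nr4a3. The median log2 fold change of the 23 was -0.11, with 9 positive and 14 negative, and that of all genes was 0.01. With CeD+GR 3 left out the receptors' median was -0.01, and with CeD+GR 1 left out it was -0.29.

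Nr3c2 averaged 4.18 ± 1.30 FPKM in CeD+GR and 8.61 ± 1.64 in CeD (SD, n = 3 each), a ratio of 0.486. The log2 fold change was -0.99 (SE 0.26), with an unadjusted limma p of 0.0045 and an adjusted p of 1. The unadjusted p of Nr3c2 was under 0.05 in all 22 alternative analyses, in which its fold change ranged from -1.23 to -0.74 and its adjusted p from 0.629 to 1. With CeD+GR 3 left out the value was -0.74, and with replicates 2 and 3 only it was -1.23. The enterocyte markers were negative for 11 of 12 genes in the same comparison, with a median log2 fold change of -0.54. Markers of smooth muscle were negative for 9 of 10 genes, with a median of -0.73 and 4 at an unadjusted p under 0.05, and those of enteric neurons and glia for 8 of 10, also with a median of -0.73. Markers of blood endothelium were positive for 9 of 9, with a median of 0.60. The part of these cells in the level of Nr3c2 was not tested.

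Nr4a3 averaged 1.37 ± 1.33 FPKM in CeD+GR and 0.213 ± 0.0573 in CeD. Its log2 fold change was 1.17 as a description, and 0.63 without CeD+GR 3. Esrrg had a log2 fold change of -0.80 (SE 0.44), which was -0.52 without CeD+GR 2 and -0.48 without CeD 1.

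Another 10 receptors differed between CeD+GR and CeD by more than 1 SE, among them the 2 hormone receptors Nr3c1 and Thra. The log2 fold change of Nr3c1 was -0.56 (SE 0.31), and that of Thra was -0.49 (SE 0.27). They were -0.27 and -0.19 without CeD+GR 3. Rarg had a value of 0.55 (SE 0.39), which dropped to 0.35 and 0.31 when CeD+GR 3 or CeD+GR 2 was left out. Pparg had 0.39 (SE 0.32), which was 0.12 without CeD+GR 3. Ppard had -0.39 (SE 0.27), which was -0.16 without CeD+GR 2. Nr1i3 and Nr6a1 had -0.45 and -0.35, which were both -0.17 without CeD+GR 3. Nr2c2 had -0.64 (SE 0.51) and Nr5a2 -0.46 (SE 0.42). Without both CeD 1 and CeD+GR 3 they were -0.14 and 0.09, so the sign of Nr5a2 turned, and with replicates 2 and 3 only they were -0.55 and -0.44. Rxrb was the 1 receptor of this group whose values did not overlap, and it was 0.17 without CeD+GR 3. Leaving out CeD+GR 1 widened several values, with 1.0003 for Rarg, -1.22 for Esrrg, -0.85 for Nr3c1, -0.80 for Nr5a2 and -0.74 for Nr1i3. Without CeD 1 Nr2c2 and Nr5a2 were -0.24 and -0.10, and without CeD 3 Pparg was 0.09. The adjusted p of these 10 was 1.

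The third comparison set CeD+GR against control and shares libraries with both others, so its values are not independent of theirs. No receptor passed the test in it either. The limma test called 0 of the 23 receptors and 0% of all genes. Leaving Nr4a3 aside as before, it held 2 of 22 receptors at an unadjusted p under 0.05, Nr3c2 and Esrrg, against 2.72% of all genes, and limma-voom called 0 and held the same 2. The groups did not overlap for 1 of these 22, Nr3c2, against 5.58% of all genes, nor for Nr4a3. The median log2 fold change of the 23 was -0.24, with 8 positive and 15 negative, and that of all genes was -0.00. Without CeD+GR 3 the median of the receptors was -0.11, and without CeD+GR 1 it was -0.37. The receptors left at an unadjusted p under 0.05 were 0 without CeD+GR 3. They were also 0 without control 3 and with only the 2 groups compared.

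Nr3c2 differed from control by a log2 fold change of -0.68 (SE 0.26), with an unadjusted limma p of 0.029 and an adjusted p of 1. Without CeD+GR 3 the value was -0.43, with an unadjusted limma p of 0.089. The unadjusted p of Nr3c2 was under 0.05 in 17 of the 22 alternatives. Nr4a3 had a log2 fold change of 1.18 as a description, and 0.64 without CeD+GR 3. Esrrg averaged 0.487 ± 0.545 FPKM against 1.38 ± 0.433 in control (SD, n = 3 each). Its log2 fold change was -1.04 (SE 0.44, unadjusted limma p 0.044), and it was -0.90 with CeD+GR 3 left out and -0.76 with CeD+GR 2 left out. The unadjusted p of Esrrg was under 0.05 in 10 of the 21 alternatives that held it. Rxra and Thra, at -0.37 and -0.45, were -0.14 and -0.15 without CeD+GR 3. Nr3c1 and Thrb, at -0.40 and -0.38, were -0.11 and -0.23 without that library. Rarg, at 0.71, was 0.51 without it, and Ppard, at -0.46, was -0.53, or -0.23 without CeD+GR 2. Nr5a2 and Nr6a1, at -0.56 and -0.40, were -0.36 and -0.22, and Rxrb, at 0.23, was 0.15. Leaving out CeD+GR 1 gave 1.16 for Rarg, -0.69 for Nr3c1 and -0.90 for Nr5a2, and leaving out CeD+GR 2 gave 0.46 for Rarg, -0.56 for Rxra and -0.64 for Nr6a1. Without control 1 Nr5a2 was -0.27 and Nr6a1 -0.62, and without control 2 Thrb was -0.20.

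**Figure D5:**
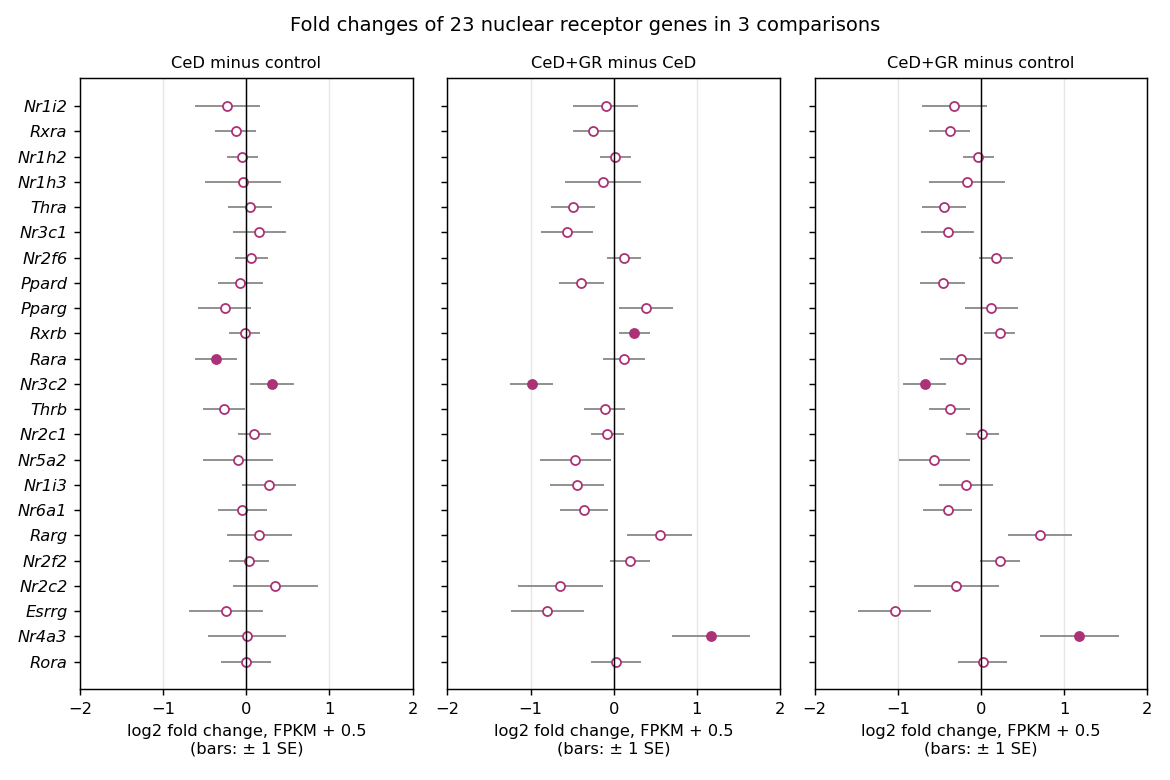
Log2 fold change of FPKM + 0.5, with bars of ± 1 SE, for the 23 tested receptors in the 3 comparisons, in order of level. Filled points mark receptors whose groups do not overlap, which are 2, 3 and 2 receptors from left to right. The middle and right panels include Nr4a3, which entered the fit only because CeD+GR was high. Leaving Nr4a3 aside, the counts are 2, 2 and 1 of 22 receptors, against 4.69%, 6.05% and 5.58% of all genes. Nr3c2 is filled in all 3 panels, at 0.31, -0.99 and -0.68.

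The genes that these receptors are known to act on were taken from lists that hold 192 genes with the coregulators and the other nuclear receptors, of which 164 were tested. The limma test called 0 of the 164 in each comparison, as did limma-voom. At an unadjusted p under 0.05 limma held 3 of them in CeD against control, 6 in CeD+GR against CeD and 6 in CeD+GR against control, against 0.701%, 2.89% and 2.72% of all genes, and limma-voom held 2, 6 and 6. The targets of the pregnane X and constitutive androstane receptors include the drug transporters and the enzymes of drug metabolism. Of the 15 tested, 2 were positive and 13 negative in CeD+GR against CeD, with a median of -0.83, and 4 had an unadjusted p under 0.05, against 2.89% of all genes. Abcc2, an exporter of conjugates, was measured at 74.9, 93.0 and 38.2 FPKM in CeD and at 30.5, 34.6 and 14.0 in CeD+GR. Its groups do not overlap, and its log2 fold change was -1.37 (SE 0.42, unadjusted limma p 0.010, adjusted p 1). Abcb1a, which encodes the drug pump P-glycoprotein, had -1.86 (SE 0.66, unadjusted limma p 0.020), with 156 FPKM in CeD 2 and 7.09 in CeD+GR 3. Without CeD+GR 3 the value of Abcb1a was -1.13 (unadjusted limma p 0.058). Against control the median of the list was -0.94, again with 2 positive and 13 negative. The medians were -0.36 and -0.20 without CeD+GR 3, and -1.36 and -1.29 without CeD+GR 1. In CeD against control the list was near 0, with a median of 0.10. The level of Nr1i2 itself did not separate the groups, and the enterocyte markers had a median of -0.54 in CeD+GR against CeD. The part of the receptor or of these cells in the levels of the targets was not tested.

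The targets of the mineralocorticoid receptor include genes of sodium transport and genes of other roles. Of 9, 6 were tested, with 2 positive and 4 negative in CeD+GR against CeD and a median of -0.51. Atp1b1, a subunit of the sodium pump, was measured at 539, 1165 and 759 FPKM in CeD and at 504, 414 and 263 in CeD+GR. These 2 groups do not overlap, and its log2 fold change was -1.04 (SE 0.40, unadjusted limma p 0.030). In control Atp1b1 was at 560 to 816 FPKM, which overlaps CeD, unlike Nr3c2. The part of Nr3c2 in the level of Atp1b1 was not tested. Sgk1, a kinase that both steroid receptors act on, was measured at 40.6, 111 and 21.9 FPKM in CeD and at 209, 138 and 56.0 in CeD+GR, the opposite direction, with a log2 fold change of 1.33 (SE 0.63, unadjusted limma p 0.064), which was 0.80 without CeD 3. The median of the list was -0.17 without CeD+GR 3.

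The targets of the glucocorticoid receptor, a list that shares Sgk1 with the former, were 13 tested genes. In CeD against control 2 were positive and 11 negative, with a median of -0.43, which was -0.21 with 4 positive and 9 negative without control 3. In CeD+GR against CeD 10 were positive and 3 negative, with a median of 0.37. The 2 comparisons share the CeD libraries. With replicates 2 and 3 only the second median was 0.09, without CeD+GR 2 it was 0.04 and without CeD+GR 3 it was 0.76. Cebpd, a transcription factor of the acute response, had the smallest unadjusted p in CeD against control, with -0.75 (SE 0.38), which was -0.37 without control 3. The 10 chaperones that hold steroid receptors in readiness were all positive in CeD+GR against CeD, with a median of 0.20, which was 0.05 with 7 positive and 3 negative without CeD+GR 3.

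Among the 15 tested targets of the fatty acid receptors Ppard and Pparg, Angptl4 stood out. It encodes a secreted inhibitor of lipoprotein lipase. It was measured at 36.9, 36.9 and 48.4 FPKM in control, at 9.32, 17.5 and 13.3 in CeD, and at 44.5, 45.9 and 18.7 in CeD+GR. All 3 CeD values lay below all 6 others. Its log2 fold change was -1.60 (SE 0.38, unadjusted limma p 0.002) in CeD against control and 1.34 (SE 0.38, unadjusted limma p 0.006) in CeD+GR against CeD, with an adjusted p of 1 in both. The levels of Ppard and Pparg overlapped between those groups. The list as a whole had medians of -0.03 and 0.27, and the second moved to 0.03 with CeD+GR 2 left out and to 0.88 with CeD+GR 3 left out.

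The targets of the liver X receptors, the 14 genes of cholesterol export and fat synthesis, had medians of 0.16 in CeD against control and 0.09 in CeD+GR against CeD. Srebf1, the regulator of fat synthesis, had the smallest unadjusted p in the second, with a log2 fold change of 0.70 (SE 0.37), which was 1.11 without CeD+GR 3. Of the retinoic acid targets 5 were tested, with medians of -0.05 and -0.11 in the same 2 comparisons. Of the thyroid hormone targets 8 were tested, with medians of -0.04 and -0.10. The 23 tested genes of ligand and retinoid supply had medians of -0.03 and -0.10, and without CeD+GR 3 the second was 0.34, with 17 positive and 6 negative. The 9 tested estrogen and progesterone targets had medians of 0.00 and 0.13, the 7 of Nr5a2 and local steroid synthesis 0.12 and 0.12, and the 7 of Rora -0.10 and 0.47. Tff1 of the estrogen list was at 0 FPKM outside CeD+GR 3, where it was at 13.6. Il1rl1 of the Rora list averaged 0.445 FPKM in control, 0.424 in CeD and 1.54 in CeD+GR. Both passed the filter only because CeD+GR was high, so the second medians of these lists are a description. In CeD+GR against CeD, leaving out 1 library moved the median of the Rora targets between 0.01 without CeD+GR 1 and 0.79 without CeD+GR 2, and that of the retinoic acid targets between -0.54 without CeD+GR 1 and 0.13 without CeD+GR 3.

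Coregulators carry the signal of a bound receptor to chromatin. Of the 21 coactivators 4 were positive and 17 negative in CeD+GR against CeD, with a median of -0.26. It was -0.12 without CeD 1, -0.39 without CeD 3, -0.21 without CeD+GR 3 and -0.06 without both CeD 1 and CeD+GR 3. Ppargc1b, a coactivator of mitochondrial genes, was measured at 8.03, 7.19 and 6.61 FPKM in control, at 5.13, 3.36 and 4.65 in CeD, and at 3.98, 4.14 and 2.67 in CeD+GR. All 6 values of the model lay below all 3 control values, with log2 fold changes of -0.69 (SE 0.23, unadjusted limma p 0.017) for CeD and -0.94 (SE 0.23, unadjusted limma p 0.003) for CeD+GR against control. Both have an adjusted p of 1. The 16 corepressors had medians of 0.05 in CeD against control and -0.09 in CeD+GR against CeD.

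The 15 nuclear receptors outside the list include the highest of the family in this tissue. Esrra averaged 131 FPKM over the 9 libraries, Hnf4a 96.4, Hnf4g 93.5 and Vdr 70.1, all above the Nr1i2 mean of 58.1. Except for Esrra this order did not hold in every library. In CeD+GR 2 Hnf4a, Hnf4g and Vdr were at 44.9, 21.5 and 55.1 FPKM, below Nr1i2 at 70.9. Of these 15, 12 were tested with limma and 0 passed, with 1, 0 and 2 at an unadjusted p under 0.05 in the 3 comparisons, against 0.701%, 2.89% and 2.72% of all genes. Nr0b2, the small heterodimer partner that represses other receptors, was measured at 9.36, 15.6 and 15.0 FPKM in control, at 6.89, 7.72 and 7.18 in CeD, and at 2.28, 5.22 and 6.21 in CeD+GR. The 3 groups do not overlap, and the log2 fold change was -0.80 (SE 0.34, unadjusted limma p 0.046) for CeD and -1.51 (SE 0.34, unadjusted limma p 0.002) for CeD+GR against control, with an adjusted p of 1. Vdr, the vitamin D receptor, was at 81.3 to 86.0 FPKM in control and 43.4 to 62.3 in CeD+GR, a log2 fold change of -0.66 (SE 0.25, unadjusted limma p 0.030).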

How the data were processed

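Values are FPKM per gene as deposited by the authors, in 1 table of 54532 genes, with 9 library columns. The tools listed, per the submitters' processing notes, are DESeq2 1.20.0, featureCounts 1.5.0-p3, HISAT2 2.0.5 and fastp, with the build mm10 and without their roles. Strand use in the counting is not given in the sources used here. For 100% of values FPKM times length came out as whole reads of 1 fixed worth per library, within 0.1 reads, and these are the recovered reads.

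Columns were matched to samples by title. Groups were compared by limma 3.58.1 in R 4.3.3 on log2(FPKM + 0.5), which understates changes of low genes, for genes that averaged 0.5 FPKM or more. The model held 3 group means over 9 libraries with empirical Bayes and a mean-variance trend, two-sided, with Benjamini-Hochberg adjustment over 14683 genes at 0.05. The fit was tested on simulated data in which libraries varied independently, so that test does not cover libraries that deviate together. With 3 against 3 libraries no exact permutation test can reach 0.05, so none was used. Exon overlaps come from GENCODE M21, in which 34 receptors were found, 32 with the same start and end. Promoters come from RefSeq, GRCm38.p6.

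Every receptor may be named. From each pathway list the 2 genes with the smallest unadjusted p per comparison may be named, and any marker gene or other nuclear receptor. The receptors and lists were chosen with earlier results of these data known. Replicate numbers come from the titles. Same-numbered libraries of control and CeD deviated together, with correlations of 0.71, 0.37 and 0.41 over genes. All 3 were above 0.1, which met the rule used for treating the numbers as pairs of these groups. The labels do not state a pairing, and the main fit does not use one. Control 2 with CeD 3, of different numbers, reached 0.46, above 2 of those 3. The 22 alternatives were pseudocounts of 0.1 and 1, no filter or at least 2 FPKM, other scalings, only the groups compared, no trend, array weights, the replicate block, limma-voom on recovered reads, and libraries left out.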

Additional observations from a re-analysis of the deposited data

How the results depend on the processing

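The 23 tested receptors gave 0 calls in each comparison under all 22 alternatives. Over all genes the count of calls was 0 under each alternative except without control replicate 1, where limma called 1 gene in CeD+GR against control, so that leaving out single libraries gave 0 to 1. That gene was Gm22615, chosen after its values were seen, with a log2 fold change of -4.31 and an adjusted p of 0.0137. With the replicate block the calls stayed at 0 receptors and 0 genes. At an unadjusted limma p under 0.05 it held 0 receptors in CeD against control, against 193 of all 14683 genes. In CeD+GR against CeD it held 6 receptors, against 805 genes, and in CeD+GR against control 4, against 643 genes. Nr4a3 is not set aside in these counts. In the comparisons with CeD+GR the numbers are only shared, since the correlation was -0.11 for control 3 and -0.12 for CeD 3 with CeD+GR 3, and the block changed no call.

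Of the 28 fold changes larger than their SE, 1 of 607 values under the alternatives changed sign, namely Nr5a2 in CeD+GR against CeD, at 0.095 without CeD 1 and CeD+GR 3 (the cause was not tested). Of the 41 smaller ones, 89 of 890 values changed sign. Leaving out CeD+GR replicate 1 raised the receptors at an unadjusted p under 0.05 to 7 and 6 in the 2 comparisons with CeD+GR, Nr4a3 not set aside. Over all 14683 genes the same counts rose to 1116 and 1072, from 425 and 400 in the main fit. Receptors under 2 FPKM have no value with the stricter filter. The median SE of 0.348 over all genes limits what 3 libraries a group can show. With array weights, limma held 1354 genes at an unadjusted p under 0.05 in CeD against control, against 103 in the main fit. Of the receptors it held 1, against 0 in the main fit, and the smallest adjusted limma p over all genes was 0.0697.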
